A study of Mus musculus with 18 samples.

Results

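Nfkbia, Icam1, Fos and Mapk8 are genes of the NF-kB and stress-kinase pathways, and their transcripts were followed in the livers of 18 mice on a small 2-colour cDNA array. They were chosen by name among the gene probes. The array names Nfkbia and Icam1 matched directly, while Fos is spotted there as c-Fos and Mapk8 as Jnk-1, older names that the RefSeq gene table lists for these genes. The 4 genes, of 282 on the array, are carried by 1 probe each, and every probe is printed as 3 spots.

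All mice were female C57BL/6 animals, 16 weeks old, fed 1% cholesterol in the chow for 1 week. A single dose by mouth preceded the removal of the liver by 24 h. The groups were rosuvastatin at 20 mg/kg (6 mice), atorvastatin at 40 mg/kg (6 mice) and tap water as the vehicle (6 mice). Statins inhibit HMG-CoA reductase, the rate-limiting enzyme of cholesterol synthesis. The cholesterol diet was given to all groups including vehicle, and the drugs were given at different doses, so that drug and dose cannot be told apart. The tissue was the left lateral lobe of the liver, with no separation of cell types. Each array carried RNA of 1 mouse in Cy3 against a pool of all samples in Cy5, and values are log2 ratios of mouse over pool. A ratio near 0 thus means a level like that of the pool, and a group difference is a log2 fold change. In bulk liver, fewer cells of a type and less RNA per cell cannot be told apart. Of the hepatocyte markers chosen, the 5 spotted (Alb, Apoa1, Apoc3, Cyp3a11 and Cyp2e1) were above background on all 18 arrays. The markers chosen for macrophages, neutrophils, endothelial, stellate and lymphoid cells are not among the probe names.

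NF-kB is held in the cytoplasm by inhibitor proteins of the IkB family until cytokines, microbial products or stress lead to their degradation. The freed factor then switches on genes of inflammation and cell adhesion, and also the gene of its own inhibitor, which closes a negative feedback loop. Stress kinases of the JNK family act in parallel and phosphorylate c-Jun, the partner of c-Fos in the dimeric transcription factor AP-1. In liver both pathways take part in the acute-phase response, in which hepatocytes secrete serum amyloid A and other plasma proteins. Nfkbia encodes IkB-alpha, the inhibitor that is itself an NF-kB target. Icam1 encodes an adhesion molecule that leukocytes bind and is another NF-kB target, Fos is an immediate early gene whose transcript rises and decays quickly, and Mapk8 encodes the kinase JNK1.

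The sequence before the start sites shows what is shared by the NF-kB targets of the set. The RefSeq promoters of Nfkbia (mouse GRCm38.p6, chr12:55492648-55492847, minus strand) and Icam1 (chr9:21015740-21015939, plus strand) each hold the 9-mer GGAAATTCC, in capitals in these 200 bases that end just before the annotated start:
Nfkbia: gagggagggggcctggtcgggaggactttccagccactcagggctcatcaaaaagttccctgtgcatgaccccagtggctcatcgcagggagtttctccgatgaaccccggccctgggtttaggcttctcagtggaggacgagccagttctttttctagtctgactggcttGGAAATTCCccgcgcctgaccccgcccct
Icam1: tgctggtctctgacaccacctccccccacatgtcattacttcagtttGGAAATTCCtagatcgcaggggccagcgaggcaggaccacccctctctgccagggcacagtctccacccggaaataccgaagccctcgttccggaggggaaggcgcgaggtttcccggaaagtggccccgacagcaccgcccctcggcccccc
The 9-mer lies at positions -29 to -21 of Nfkbia and -153 to -145 of Icam1, counted from the start site, and 94 of 32851 RefSeq mouse promoter windows (0.286%) hold it in the 250 bases before the start. Both strands were searched. The motifs were picked after these promoters had been read, and a match describes the letters alone, since no binding was measured here.

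The Fos promoter (chr12:85473770-85473889, plus strand) had no match to GGAAATTCC. It holds TGACGT, the core of a cyclic AMP response element, in capitals at positions -66 to -61 of these 120 bases:
Fos: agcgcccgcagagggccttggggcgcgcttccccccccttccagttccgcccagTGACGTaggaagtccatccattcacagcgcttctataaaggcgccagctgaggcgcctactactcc
TGACGT was searched on both strands and occurs in 6.47% of the promoter windows. It was also matched at positions -36 to -31 of a Mapk8 window, but one that belongs to another start than the annotated gene start. A separate kappa-B consensus, longer than GGAAATTCC and with alternative letters at some positions, was present in 3.9% of windows. It matched Nfkbia over the same bases (-29 to -20) and Fos further upstream (-214 to -205), with no match in Icam1. GGAAATTCC alone does not meet this consensus.

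Whether a transcript was measurable at all came first. A spot counted as above background if its Cy3 signal exceeded the local background by 2 SDs of the background pixels, and a probe if most of its spots did. By this rule the inhibitor Nfkbia and the kinase Mapk8 were above background on 18 of 18 arrays. The adhesion molecule Icam1 was above background on 10 of 18 arrays, with 5 rosuvastatin, 2 atorvastatin and 3 vehicle mice. The immediate early gene Fos was above background on 8 arrays, with 3 rosuvastatin, 2 atorvastatin and 3 vehicle mice. Thus ratios of Icam1 and Fos rest in part on spots close to background, and 7 and 8 arrays of Icam1 and Fos had no spot above it. Mapk8 was not far above the margin either, at a median of 2.99 background SDs and a lowest value of 2.25.

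**Figure D1:**
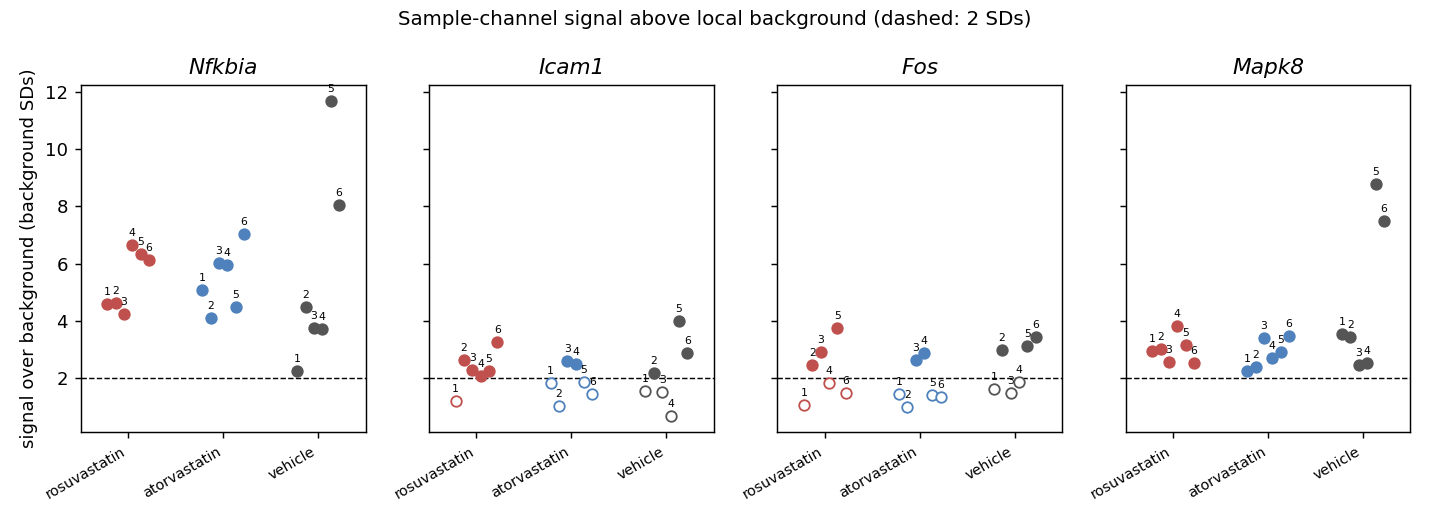
Sample-channel signal of each gene above its local background, in background SDs (y axis), for each mouse by group (x axis, numbers are replicates, filled points are above background by the majority of spots, the dashed line is 2 SDs). Nfkbia and Mapk8 lie above the line on all arrays, Icam1 and Fos on both sides of it, and vehicle 5 is the highest for Nfkbia (11.70), Icam1 (3.99) and Mapk8 (8.80).

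Net signals of the sample channel, in scanner units, were low throughout. Nfkbia had 138, 202 and 252 (lowest, median and highest) in rosuvastatin mice, 158, 210 and 259 in atorvastatin mice, and 109, 142 and 400 in vehicle mice. Mapk8 had 81, 108 and 140 in rosuvastatin mice, 78, 104 and 142 in atorvastatin mice, and 101, 128 and 296 in vehicle mice. The highest vehicle values of both came from vehicle 5, the array with the most gene probes above background (218 of 289, against 155 to 200 on the other arrays). Net signals of Icam1 ranged between 25 and 131 and those of Fos between 43 and 124. The local background under these probes was itself of similar size, at 56 to 143 for Icam1 and 56 to 139 for Fos.

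A pair of arrays stood apart from the rest over all kept probes. The ratios of atorvastatin 4 had a median correlation with the other arrays of r = -0.46, and those of vehicle 5 of 0.25, against 0.64 to 0.89 elsewhere. The labels give the same dyes to all arrays, and so the direction was kept. In atorvastatin 4 the acute-phase transcript Saa1, the serum amyloid A gene, had a log2 ratio of 1.65, against -1.44 in vehicle 5 and -5.87 to -2.54 in the other 16 mice. Results for the 4 genes are therefore given with and without these arrays. Without both, the differences from vehicle with rosuvastatin and atorvastatin were 0.42 and 0.37 for Nfkbia, 0.19 and 0.13 for Icam1, 0.07 and 0.04 for Fos, and -0.07 and -0.12 for Mapk8, on the log2 scale. The values from all mice follow gene by gene.

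Nfkbia was the member with the widest spread between mice. Its log2 ratio had a lowest value of -0.35, a median of -0.05 and a highest value of 0.26 in rosuvastatin mice. In atorvastatin mice the same values were -0.28, -0.06 and 0.15, and in vehicle mice -0.82, -0.36 and 0.19. Vehicle mice 1, 2, 3, 4 and 6 lay at or below -0.23, and vehicle 5 alone was above 0, so the groups overlapped. Group means were -0.03 ± 0.24 in rosuvastatin, -0.05 ± 0.16 in atorvastatin and -0.35 ± 0.33 in vehicle mice (SD, n = 6 each). In rosuvastatin mice 5 of 6, and in atorvastatin mice 6 of 6, were above the vehicle mean. The pattern of all mice above the vehicle mean was found for 5.85% of the 188 kept probes with atorvastatin.

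The log2 fold change of Nfkbia was 0.31 for rosuvastatin against vehicle (1.24-fold, SE 0.14, 95% interval 0.01 to 0.61) and 0.29 for atorvastatin against vehicle (1.23-fold, SE 0.14, 95% interval -0.00 to 0.59). Neither passed the threshold of an adjusted p of 0.05 in limma (adjusted p = 0.723 with rosuvastatin and 0.568 with atorvastatin). The exact permutation test over mice, two-sided, gave p = 0.0866 with rosuvastatin and p = 0.0779 with atorvastatin, where the smallest p that 6 against 6 mice allow is 0.00216. Without vehicle 5 the differences were 0.42 with rosuvastatin and 0.40 with atorvastatin, and without vehicle 1 they were 0.22 and 0.20. Local background was read from a ring of the same area on 11 arrays, with fewer mice per group. These were rosuvastatin 1, 2, 5 and 6, atorvastatin 2, 5 and 6, and vehicle 2, 4, 5 and 6. Within these 11 arrays, which hold vehicle 5 but not vehicle 1, the differences were 0.20 and 0.17. The deposited table gave 0.20 with both drugs.

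Icam1 had the smallest SD within groups when the 3 groups were pooled (0.11, against 0.13 for Mapk8), although Mapk8 varied less in atorvastatin mice and Fos less in rosuvastatin mice. The median SD between the 3 Icam1 spots of an array was also 0.11. Its log2 ratio had a lowest value of -0.20, a median of -0.06 and a highest value of 0.03 in rosuvastatin mice. In atorvastatin mice the values were -0.32, -0.11 and 0.12, and in vehicle mice -0.36, -0.24 and -0.15. Rosuvastatin 5 and atorvastatin 6 lay within the vehicle range. Close above its upper end lay rosuvastatin 2 (-0.11) and 4 (-0.10) and atorvastatin 1 (-0.12), 2 (-0.11) and 3 (-0.14). Their gaps to the highest vehicle mouse were smaller than the SD between spots. Both statin groups thus overlapped with vehicle, and of the 188 kept probes 0% were free of overlap in either comparison. All 6 rosuvastatin mice were above the vehicle mean, which held for 4.79% of the kept probes. Group means were -0.06 ± 0.09 in rosuvastatin, -0.08 ± 0.16 in atorvastatin and -0.25 ± 0.08 in vehicle mice (SD, n = 6 each).

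The log2 fold change of Icam1 was 0.18 for rosuvastatin against vehicle (1.14-fold, SE 0.07, 95% interval 0.03 to 0.33) and 0.16 for atorvastatin against vehicle (1.12-fold, SE 0.07, 95% interval 0.01 to 0.31). The adjusted p of limma was 0.723 with rosuvastatin and 0.533 with atorvastatin, so that neither passed. The exact permutation test gave p = 0.00433 with rosuvastatin and p = 0.0455 with atorvastatin. These are unadjusted values among 12 such tests of the 4 genes. In the sample channel alone, without the pool, the atorvastatin difference was 0.04, within the 11 arrays of one ring area the differences were 0.19 with rosuvastatin and 0.13 with atorvastatin, and with plain background subtraction the rosuvastatin and atorvastatin differences were 0.33 and 0.27. The rosuvastatin difference was 0.11 both in the deposited table and after shifting each array on its spike-in spots, and 0.16 with median centring, and under these 3 settings its unadjusted p was no longer under 0.05.

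Of the 12 Icam1 arrays from statin-treated mice, 5 were below background, including rosuvastatin 1, which had the highest ratio of its group (0.03) at a net signal of 46. Of the 6 vehicle arrays 3 were below background, including vehicle 4, with the lowest net signal of all (25). Averaging only spots above background gave 0.17 with rosuvastatin and 0.22 with atorvastatin, and leaving the background in place gave 0.18 with both.

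**Figure D2:**
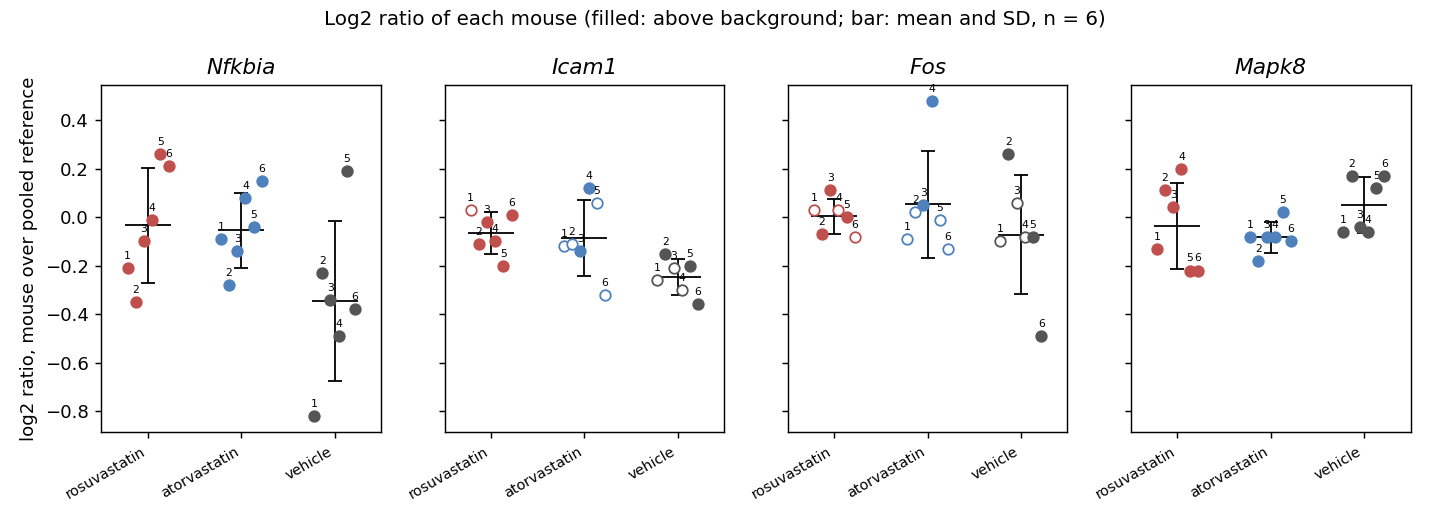
Log2 ratio of mouse over pooled reference (y axis) for each of the 18 mice by group (x axis, numbers are replicates, filled points are above background, horizontal bars are group means with SD, n = 6). Statin-treated and vehicle mice overlap for every gene, and atorvastatin 4 stands off for Fos at 0.48.

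Fos gave no difference between groups that passed the test. Its log2 ratio had a lowest value of -0.08, a median of 0.01 and a highest value of 0.11 in rosuvastatin mice. In atorvastatin mice the values were -0.13, 0.00 and 0.48, and in vehicle mice -0.49, -0.08 and 0.26. Group means were 0.00 ± 0.07 in rosuvastatin, 0.05 ± 0.22 in atorvastatin and -0.07 ± 0.25 in vehicle mice (SD, n = 6 each). The rosuvastatin mice lay within a range of 0.19, whereas the vehicle mice spanned 0.75, between vehicle 6 at the low and vehicle 2 at the high end. The log2 fold change was 0.07 for rosuvastatin against vehicle (SE 0.11, 95% interval -0.16 to 0.31, adjusted p = 0.866) and 0.13 for atorvastatin against vehicle (SE 0.11, 95% interval -0.11 to 0.36, adjusted p = 0.772, limma). The highest mouse, atorvastatin 4, carried much of the second value, which was 0.04 without it. Exact permutation p-values were 0.58 with rosuvastatin and 0.377 with atorvastatin. Direction was not settled for Fos, since the rosuvastatin difference was -0.01 without vehicle 6 and the atorvastatin difference was -0.07 in the sample channel alone but 0.30 when only spots above background were averaged and 0.28 with median centring.

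Mapk8 was the only member whose means were lower with both statins than with vehicle. Its log2 ratio had a lowest value of -0.22, a median of -0.05 and a highest value of 0.20 in rosuvastatin mice. In atorvastatin mice the values were -0.18, -0.08 and 0.02, and in vehicle mice -0.06, 0.04 and 0.17. Atorvastatin 1, 3 and 4 lay at -0.08 and atorvastatin 6 at -0.10, close to the lowest vehicle value of -0.06. These gaps were smaller than the median SD between the 3 spots of an array in atorvastatin mice (0.11). Group means were -0.04 ± 0.18 in rosuvastatin, -0.08 ± 0.07 in atorvastatin and 0.05 ± 0.12 in vehicle mice (SD, n = 6 each). Rosuvastatin 4 was above every vehicle mouse, and its 3 spots differed most (SD 0.33). The log2 fold change was -0.09 for rosuvastatin against vehicle (0.94-fold, SE 0.08, 95% interval -0.26 to 0.08, adjusted p = 0.802) and -0.13 for atorvastatin against vehicle (0.91-fold, SE 0.08, 95% interval -0.30 to 0.03, adjusted p = 0.593, limma). Exact permutation p-values were 0.333 with rosuvastatin and 0.0476 with atorvastatin. Within the 11 arrays of one ring area the differences were -0.22 and -0.19, and with each array centred on its median in place of loess both were -0.04.

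Of the 4 genes, 0 passed the threshold in any contrast, as did 0% of the 188 kept probes (limma, Benjamini-Hochberg). At an unadjusted p under 0.05 there were 2 of 4 with rosuvastatin (Nfkbia and Icam1, against 6.38% of all kept probes) and 1 of 4 with atorvastatin (Icam1, against 8.51%). With both statins averaged against the same vehicle mice there were again 2 of 4 (Nfkbia and Icam1, against 8.51%). In that average Nfkbia differed by 0.30 (95% interval 0.04 to 0.56, adjusted p = 0.51, limma) and Icam1 by 0.17 (95% interval 0.04 to 0.30, adjusted p = 0.51, limma). Fos differed by 0.10 (adjusted p = 0.784) and Mapk8 by -0.11 (adjusted p = 0.734). The contrasts with vehicle share its 6 mice, and the 4 genes were picked with earlier results of these data known, so that their share is a description only. Their median log2 fold change was 0.13 with rosuvastatin and 0.14 with atorvastatin, against -0.01 over all kept probes in both.

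**Figure D3:**
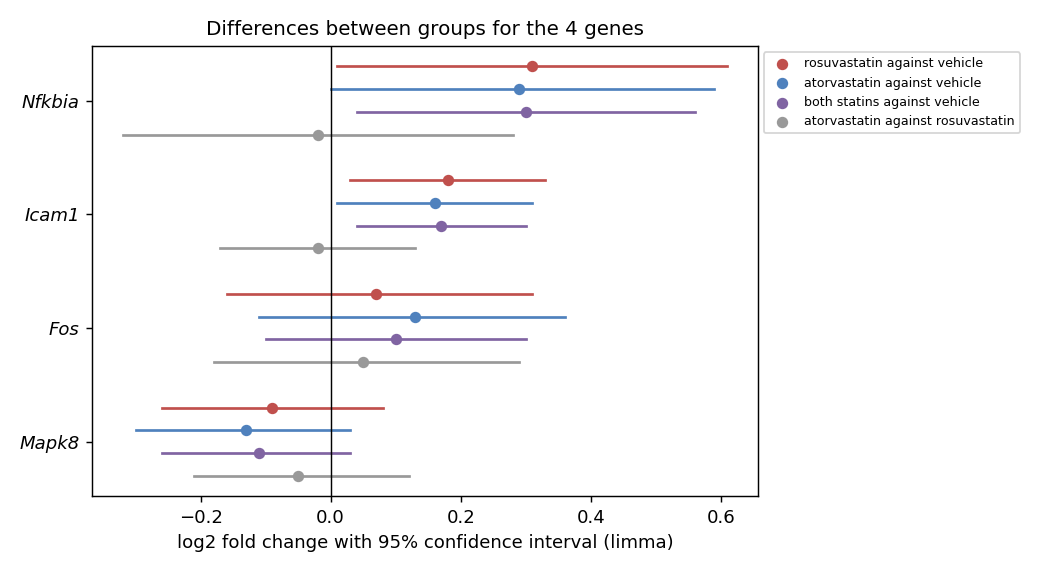
Log2 fold change (x axis) with its 95% confidence interval from limma for the 4 genes (y axis) in 4 contrasts by colour. Intervals of Icam1 leave out 0 in the contrasts with vehicle, at 0.18 and 0.16 for rosuvastatin and atorvastatin, while those of Fos and Mapk8 cross it, and the intervals of atorvastatin against rosuvastatin cross it for all 4 genes.

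The statins, which differ in the ring at the core of the molecule (a pyrrole in atorvastatin and a pyrimidine in rosuvastatin), were then set against each other at their different doses, with 4 genes compared and p-values adjusted over all kept probes. Atorvastatin minus rosuvastatin was -0.02 for Nfkbia (95% interval -0.32 to 0.28, adjusted p = 0.972), -0.02 for Icam1 (-0.17 to 0.13, adjusted p = 0.942), 0.05 for Fos (-0.18 to 0.29, adjusted p = 0.925) and -0.05 for Mapk8 (-0.21 to 0.12, adjusted p = 0.902, limma). At an unadjusted p under 0.05 there were 0 of 4, against 5.32% of all kept probes. No difference was detectable with 6 mice a group, and the intervals bound the size that could have been missed. Exact permutation p-values lay between 0.576 for Mapk8 and 0.872 for Nfkbia.

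The other genes of these pathways were taken from a list of 65, of which the array holds 16. Of these, 9 were kept with 1 probe each and 0 passed the threshold in either direction, in any of the 4 contrasts. The other 7 were not kept. Jun, the AP-1 partner of Fos, was above background on 0 arrays, as were Creb1, the factor that binds cyclic AMP response elements, Cebpd, an acute-phase transcription factor, and the probes named Prkc and Ikapa-b in the array design. Vcam1, an endothelial adhesion molecule related in function to Icam1, was above background on 3 arrays and Egr1, an immediate early gene like Fos, on 5.

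Among the kinases, Mapk9, which encodes JNK2, was measured on all 18 arrays and differed by -0.05 with rosuvastatin (adjusted p = 0.825) and -0.02 with atorvastatin (adjusted p = 0.961, limma). The probe named Sapk, which the gene table does not resolve, differed by -0.02 and 0.02. Among the targets, Nos2, the inducible nitric oxide synthase, differed by 0.06 with rosuvastatin and 0.13 with atorvastatin, and Crp, the C-reactive protein gene, by 0.10 and 0.17. These intervals all crossed 0. Among the transcription factors, Ppara, a lipid-sensing nuclear receptor that represses NF-kB and AP-1 targets, differed by 0.23 with rosuvastatin (95% interval -0.04 to 0.50, adjusted p = 0.733) and by 0.37 with atorvastatin (95% interval 0.10 to 0.64, adjusted p = 0.424, limma). Its partner Rxra differed by 0.05 and 0.21, the acute-phase factor Stat3 by -0.04 and 0.11, the glucocorticoid receptor Nr3c1 by -0.06 and 0.01, and the cyclic AMP-responsive factor Crem by -0.01 and -0.10. The median of the 9 was -0.01 with rosuvastatin and 0.11 with atorvastatin, against -0.01 over all kept probes in both.

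**Figure D4:**
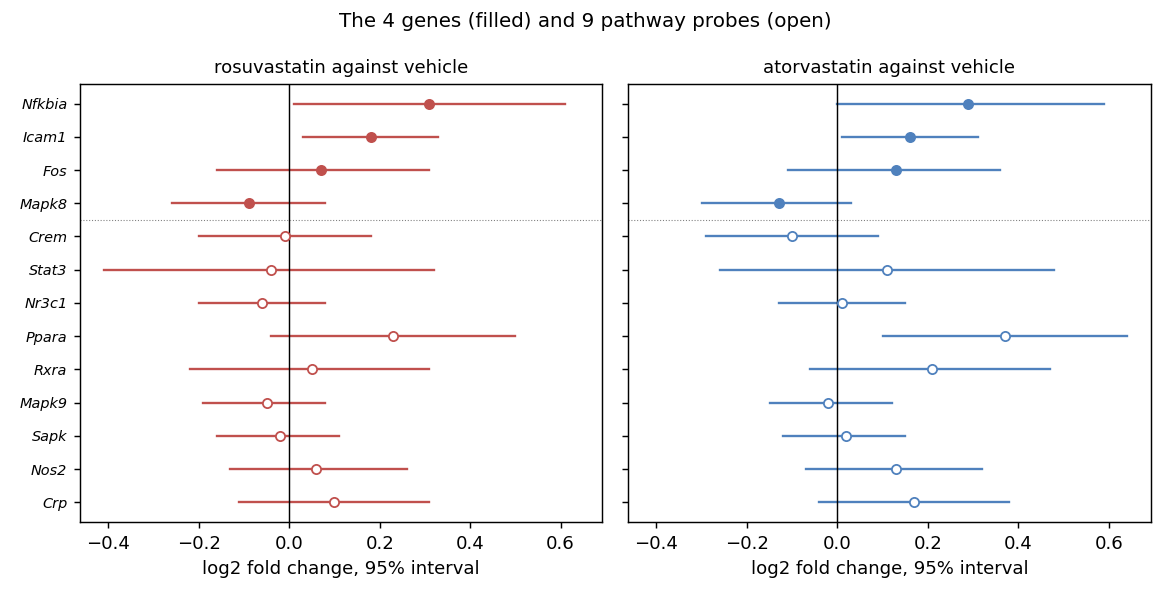
Log2 fold change with its 95% confidence interval (x axis) for the 4 genes (filled) and the 9 kept probes of the pathway list (open, y axis), for rosuvastatin against vehicle (left) and atorvastatin against vehicle (right). Nfkbia and Ppara lie highest in both panels, with Ppara at 0.23 and 0.37, and the probes Mapk9 and Sapk stay within 0.05 of 0.

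Likeness between genes was described by Pearson correlation of log2 ratios over the 18 arrays. These arrays share the pool, the normalisation and, within a group, the treatment, and correlations are given without a test. Nfkbia was most like Pck1, the gluconeogenic enzyme PEPCK (r = 0.80, and 0.78 without atorvastatin 4 and vehicle 5), followed by Trp53, the tumour suppressor p53 (0.71), and Ncoa1, a nuclear receptor coactivator (0.69). Vehicle 1 was lowest for both Nfkbia (-0.82) and Pck1 (-0.59). Within groups, with each group's mean removed, r of Nfkbia and Pck1 was 0.87. Pck1 itself differed by 0.05 with rosuvastatin and 0.28 with atorvastatin (95% intervals -0.36 to 0.45 and -0.12 to 0.69). Over all kept probes the correlations of Nfkbia ran between -0.87 and 0.80 with a median of 0.01.

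Icam1 was most like Ppara (r = 0.66), Fos (0.65) and Ncor1, a nuclear receptor corepressor (0.60). Fos was most like Ncor1 (0.78), the adiponectin receptor gene Adipor1 (0.73) and the acute-phase gene Orm1, which encodes orosomucoid (0.73). Mapk8 was most like Sumo2, a ubiquitin-like modifier (0.66), Cebpg, a bZIP transcription factor (0.65), and Apob, the apolipoprotein of VLDL (0.58). Cebpg was above background on only 7 of 18 arrays, and the rank correlation (Spearman) of Mapk8 with Apob was 0.35. Among the 4 genes, the pair Icam1 and Fos had r = 0.65 (0.51 without the arrays that stood apart). The 8 arrays on which Icam1 was below background were below it for Fos too. Nfkbia and Icam1 had r = 0.36 and within groups 0.05. Mapk8 ran with none of the others (r between -0.19 and -0.12).

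Fos and the acute-phase transcripts Orm1 and Saa1 were high together in some mice. The highest Fos ratio, 0.48 in atorvastatin 4, fell in the mouse with the highest Orm1 (0.26) and Saa1 (1.65). Saa2 (1.62) and Saa3 (1.88) were highest there too, but Saa4 (-0.14) and C3 (0.20) were not. The next highest Fos ratio, 0.26 in vehicle 2, came with the second highest Orm1 (-0.30) and a Saa1 of -2.54. The lowest, -0.49 in vehicle 6, came with an Orm1 of -1.40 and a Saa1 of -5.39. Vehicle 5, in contrast, had a high Saa1 of -1.44 and a Fos ratio of -0.08. Without atorvastatin 4 and vehicle 5, r of Fos was 0.58 with Orm1 and 0.43 with Saa1, against 0.73 and 0.63 over all mice. The rank correlation (Spearman) of Fos with Saa1 was 0.29 and with Orm1 0.52. Within groups and with all arrays, Icam1 had r = 0.72 for Saa1 and 0.74 for Orm1, against 0.69 and 0.84 for Fos. Over all mice r was 0.44 and 0.38 for Icam1, and 0.19 and -0.12 for Nfkbia. Without atorvastatin 4 and vehicle 5, r fell to 0.27 and 0.15 for Icam1, and to -0.21 and -0.49 for Nfkbia. No acute-phase transcript passed the threshold in any contrast, and their part in the Fos and Icam1 values was not tested.

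**Figure D5:**
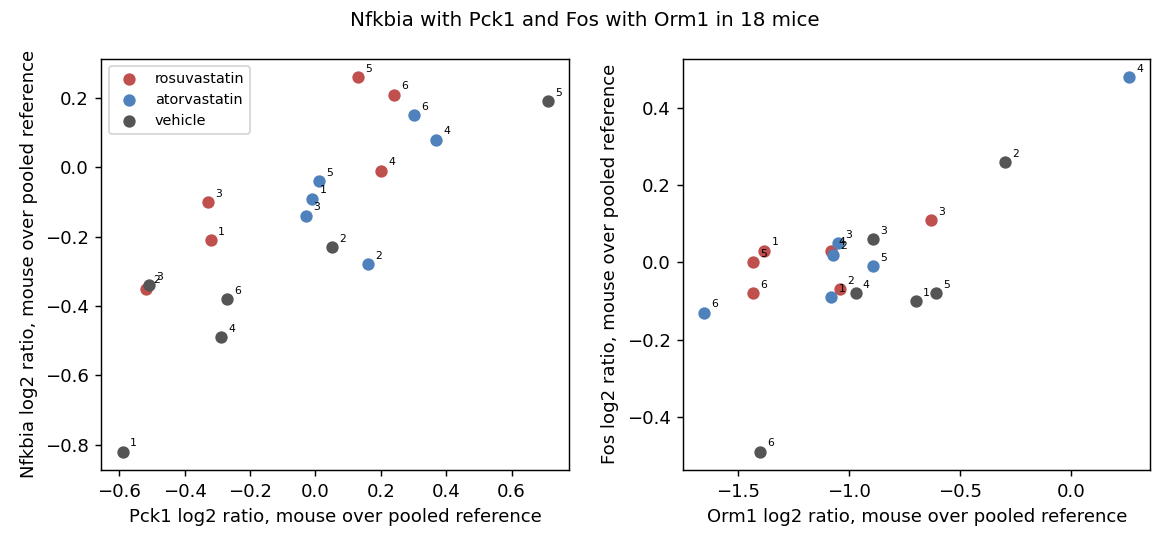
Log2 ratios of Nfkbia against Pck1 (left) and of Fos against Orm1 (right) in 18 mice, coloured by group and numbered by replicate, both axes as mouse over pooled reference. Nfkbia and Pck1 run together with r = 0.80, from vehicle 1 at the low end, and the Fos and Orm1 relation (r = 0.73) has atorvastatin 4 at its upper end.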

How the data were processed

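Hepatic RNA of 18 mice was hybridised on the Steroltalk cDNA array. The deposited files hold, per the file headers, median spot and local background intensity of each channel on a linear scale, with nothing subtracted. The image software is not given in the sources used here. A further deposited table gives log2 ratios made by steps that are not stated, and it served as an alternative. Each array had 1440 spots, 870 of them for 289 gene probes. Columns of other series numbered 0.

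Background was corrected by normexp (offset 50), ratios were normalised within arrays by loess (control spots weighted 0), and spots of a probe were averaged (R 4.3.3, limma 3.58.1, statmod 1.5.0). The 188 probes above background on at least 6 arrays were kept. All arrays entered one limma fit (lmFit, eBayes) without block, and adjusted p-values follow Benjamini-Hochberg across the 188 probes. Single genes were also compared by exact permutation of mice, and the fit was tested on simulated data. The p-values set group differences against the spread between these mice. Nothing states that the mice were independent of cage or batch, and the p-values may be too small if they were not. The number of arrays limits the precision. Of the gene probe names, 220 were current symbols, 49 older symbols and 4 other spellings in the RefSeq table (GRCm38.p6), and 16 were kept as written. Promoters come from RefSeq and were matched by symbol.

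The text names the 4 genes, the 3 kept probes most like each and the kept members of the pathway list. The genes and lists were chosen with earlier results of these data known. Alternatives covered background, normalisation, filter, weights, blocks, the ring area of the background and left-out mice. The values within the ring area without vehicle 5 were added after seeing the data.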

Additional observations from a re-analysis of the deposited data

Results flagged for a closer look

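Within each group of 6 mice, the highest and lowest ratio of each of the 4 genes was checked for standing off from its neighbours by Dixon's criterion. Of 12 groups checked, 1 was picked out, and chance picks about 1 in 20. The Fos ratio of atorvastatin 4 was 0.48, and its gap to the next atorvastatin mouse was 0.71 of the range of the group, above Dixon's 95% limit for 6 values. This is also the array with the highest Saa1 and the negative correlation with the other arrays, and all 3 Fos spots on it were above background. The cause was not tested.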

How the results depend on the processing

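Differences of Nfkbia, Icam1 and Mapk8 from vehicle kept their direction under all alternatives run, and none of the 4 genes passed the threshold under any of them. Fos reversed for rosuvastatin against vehicle with the deposited table (-0.02) and without vehicle 6 (leaving out single mice gave -0.01 to 0.14), and for atorvastatin against vehicle in the sample channel alone (-0.07). Atorvastatin minus rosuvastatin lay near 0 and changed sign often. With median centring it was 0.01 for Nfkbia, 0.09 for Icam1 and 0.00 for Mapk8, and after shifting on the spike-in spots 0.02, 0.09 and 0.01. The deposited table gave 0.00 for Nfkbia and 0.03 for Icam1, array weights 0.01 for Nfkbia and -0.01 for Fos, and ring area as a block 0.03 for Nfkbia. Spots above background alone gave 0.04 for Icam1. The 11 arrays of one ring area gave -0.01 for Fos and 0.03 for Mapk8, with the same values without vehicle 5. Fos was -0.15 in the sample channel alone, -0.03 without atorvastatin 4 and vehicle 5, and 0.25 with spots above background alone. Leaving out single mice gave -0.08 to 0.04 for Nfkbia, -0.06 to 0.03 for Icam1, -0.08 to 0.00 for Mapk8 and -0.03 to 0.09 for Fos. The cause of these changes was not tested.

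Replicate numbers were not used to pair the mice in the main fit. Over 18 pairs of same-numbered mice, r of their deviations ran between -0.60 and 0.61 (median 0.17, 10 over 0.1). Whether same-numbered mice shared a batch was not tested. With the replicate block 2 probes passed for atorvastatin against vehicle, against 0 without it, and Nfkbia kept 0.31 with rosuvastatin (adjusted p = 0.471) and 0.29 with atorvastatin (adjusted p = 0.411). Detection depended on the margin: with none, Icam1 and Fos were above background on 18 arrays, and with 3 SDs on 2 and 3 arrays, and Mapk8 on 9. Icam1 and Fos had no value where a probe had to be above background on every array.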
